A study of Mus musculus with 85 samples.

Results

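Hematopoietic stem cells (HSC) from the fetal liver were compared with hematopoietic cluster cells from the aorta region, gene by gene, in single cells of wild-type mouse embryos. The cells were chosen by their sample titles. They are 26 HSC taken at embryonic day (E) 14.5 and 16 cluster cells taken at E12.5, together 42 of the 84 cells of the study. The other cells are 7 endothelial cells (EC), 7 hemogenic endothelial cells (HEC) and 28 cluster cells, all of E10.5. EC and HEC came from embryos with an eR1-GFP reporter, and the E10.5 cluster cells from wild-type embryos. HSC arrays 20 and 21 held nearly the same values (r = 0.991, where the second closest arrays of the study had 0.859) and were averaged and counted as 1 cell, which takes 27 HSC arrays to 26 cells. HSC were sorted as CD150+, CD48-, c-Kit+, Sca-1+, Lin- and Mac-1+, and cluster cells of the aorta-gonad-mesonephros region as c-Kit+, CD31+, CD45+ and SSEA1-. Both tissues were dissociated with collagenase and both populations carry no transgene. Stage, tissue and sorting gate all differ between the 2 populations, so they cannot be told apart in any difference given here.

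In the mouse embryo the first HSC arise from hemogenic endothelium of the dorsal aorta and its connecting arteries. Cells that turn from endothelium to blood round up and bud into the vessel as clusters, which hold precursors of HSC together with progenitors that make blood cells but not stem cells. HSC and their precursors then colonise the fetal liver, where the stem-cell pool expands before it moves to the bone marrow. A fetal liver HSC still divides but keeps the capacity for long-term self-renewal, whereas a myeloid progenitor has begun to make the receptors, enzymes and granule proteins of granulocytes, macrophages and mast cells.

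Expression is given as the deposited log2 value of each cell, and a value above 5 was taken as above background. The labels tie no cell to an animal, litter or culture. Each population is therefore 1 sample, no test was made, and differences have no replicate check. Each difference is the HSC mean minus the E12.5 cluster mean, SDs are over cells, and intervals for shares of cells are exact Clopper-Pearson 95% intervals that cover counting error over cells only. A gene was counted as higher or lower when its mean differed by 1 log2 unit or more.

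HSC had 4750 to 8489 probe sets above background (median 6583), and E12.5 cluster cells 4137 to 11079 (median 7917). The median difference over the 10695 measured genes was -0.54 as deposited and 0.02 after quantile normalization, which gives every cell the same distribution of values. As deposited, 846 genes were higher in HSC (7.91% of measured genes) and 3948 were lower (36.9%). After quantile normalization 1795 were higher (16.8%) and 1978 lower (18.5%). The lists below are to be read against these shares and medians, and the part of detection in the differences was not tested.

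Genes of the sorting gates were looked up in each cell. Kit, the receptor for stem cell factor, was above background in 25 of 26 HSC and 13 of 16 E12.5 cells, and Ptprc, which encodes CD45, in 22 of 26 HSC and 15 of 16 E12.5 cells. Slamf1, the gene of CD150, was found in 10 of 26 HSC and 0 of 16 E12.5 cells, and Cd48 in 2 of 26 HSC and 13 of 16 E12.5 cells. HSC cells 5 and 7 held 25 and 27 of 32 vascular genes, had Lyve1, a receptor of sinusoidal and lymphatic endothelium, at 15.05 and 14.73, and lacked Ptprc. E12.5 cells 3, 6 and 10 held 17 of 18 macrophage markers each, with the complement gene C1qb at 15.69, 15.59 and 15.88, and had Kit at background. Lyve1 was also high in E12.5 cell 10 (14.29), so it was not particular to HSC cells 5 and 7. These 5 cells (HSC 5 and 7, E12.5 3, 6 and 10) were picked out for the number of vascular or macrophage genes they held. They stay in all values, and the counts that lead each list are also given without them where that matters. Other cells also stood out in Ptprc or Cd48 and are not among these 5. HSC cells 10 and 23 and E12.5 cell 4 had Ptprc below the limit of 5, and HSC cells 4 and 20 held Cd48 (10.21 and 9.06). The sexes may be mixed unequally, since Xist, a transcript of female cells, was found in 1 of 26 HSC and 6 of 16 E12.5 cells, and the part of sex in the differences was not tested.

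HSC were set apart by regulators of stem-cell self-renewal and by membrane proteins shared with endothelium. Mecom, a zinc-finger transcription factor that long-term HSC need, ran from 2.33 to 13.47 (median 11.32) in HSC and from 2.28 to 9.0 (median 2.32) in E12.5 cells, a difference of 7.41. It was above background in 23 of 26 HSC (88.5%, interval 69.8 to 97.6%) and in 1 of 16 E12.5 cells (6.25%, interval 0.158 to 30.2%). The E12.5 cell that had it was cell 9, and the 3 HSC without it were cells 5, 7 and 23. The value comes from 1 of 3 probe sets for Mecom. All 3 pointed the same way, but the mean over them differed by only 2.55.

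Hlf, a bZIP transcription factor that marks HSC and their precursors in the embryo, ran from 2.30 to 11.91 (median 9.20) in HSC and from 2.28 to 11.11 (median 2.33) in E12.5 cells, a difference of 5.27. It was found in 21 of 26 HSC (80.8%, interval 60.6 to 93.4%) and in 2 of 16 E12.5 cells (12.5%, interval 1.55 to 38.3%). E12.5 cell 9 held it at 11.11, within the range of HSC that expressed it. Esam, an adhesion molecule of endothelial junctions and HSC, ran from 2.33 to 12.09 (median 10.36) in HSC and from 2.41 to 8.11 (median 2.49) in E12.5 cells. The difference was 6.78, with 24 of 26 HSC (92.3%, interval 74.9 to 99.1%) and 1 of 16 E12.5 cells above background. That E12.5 cell was cell 10, which also held macrophage markers. All 3 of Mecom, Hlf and Esam were above background in 19 of 26 HSC and 0 of 16 E12.5 cells, and none of the 3 in 0 of 26 HSC and 13 of 16 E12.5 cells. The 3 HSC with only 1 of these genes were cells 5, 7 and 23, and each held Esam alone. Cells 5 and 7 are those picked out above for their vascular genes.

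**Figure D1:**
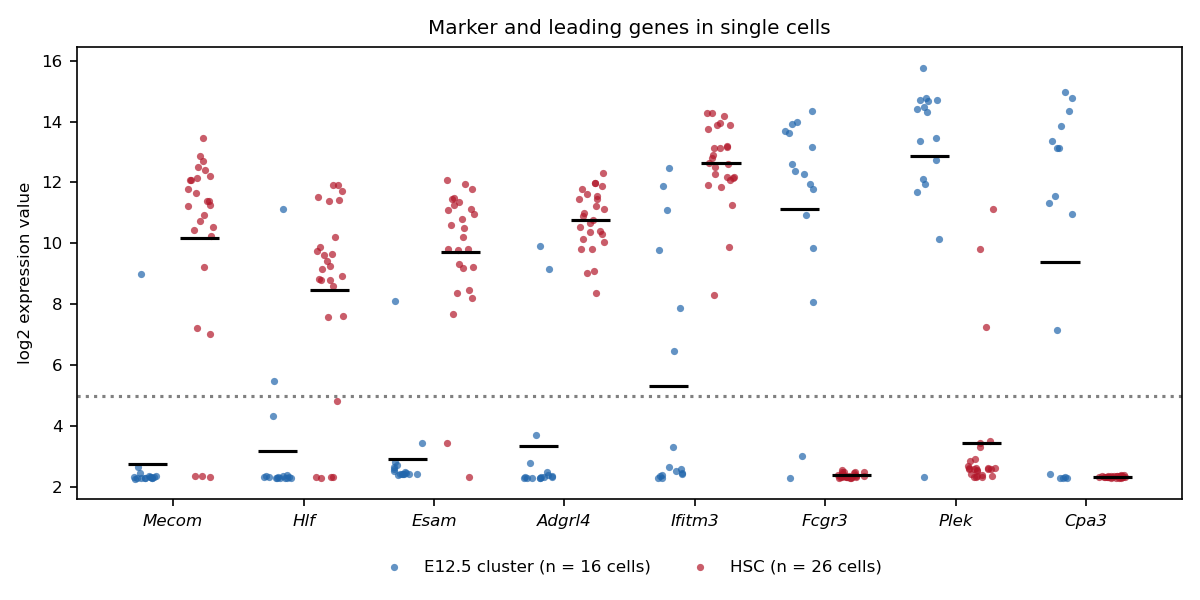
Deposited log2 values of 8 genes in 16 E12.5 cluster cells (blue) and 26 HSC (red), with each point 1 cell, black lines the means and the dotted line the background limit of 5. Mecom, Hlf, Esam, Adgrl4 and Ifitm3 are high in most HSC and Fcgr3, Plek and Cpa3 in most E12.5 cells, and in each gene some cells of the high population sit near the lower bound or some cells of the other reach up to it.

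Among 33 measured HSC transcription factors, 15 were higher in HSC and 7 lower, with a median difference of 0.77 (18, 4 and 1.34 after quantile normalization, and a median of 0.078 when medians over cells are compared). Gfi1, a repressor that restrains HSC division, ran from 2.31 to 14.41 (median 11.80) in HSC against 2.28 to 12.92 (median 2.34) in E12.5 cells and was found in 20 of 26 HSC and 4 of 16 E12.5 cells. Mycn, a Myc family factor, differed by 4.57 and was found in 20 of 26 HSC and 4 of 16 E12.5 cells. Hoxa9, a homeobox factor of blood progenitors, differed by 4.55, and the haematopoietic adaptor Lmo2 by 4.21. Other factors of early blood cells differed less. Tal1 was found in 22 of 26 HSC and 10 of 16 E12.5 cells (2.02) and Erg in 21 of 26 HSC and 8 of 16 E12.5 cells (2.24). Meis1, a homeobox cofactor, had nearly equal means (0.01, and 0.88 after quantile normalization). Runx1, the factor needed for blood emergence, was found in 4 of 26 HSC and 7 of 16 E12.5 cells (-1.41, and -0.40 after quantile normalization), and in 15 and 10 cells on any of its 6 probe sets. The members furthest below 0 were Klf2 (-4.82), Nr4a1 (-3.84) and Egr1 (-3.72), which are also immediate early genes. Gata2, a factor of both HSC and mast cells, was found in 22 of 26 HSC and 14 of 16 E12.5 cells with a difference of -2.40.

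Membrane and secreted proteins of HSC gave the highest list median. Of 26 measured members, 18 were higher and 4 lower (median 2.47, and 2.11 with 15 and 4 when the 5 cells are left out). Adgrl4, an adhesion receptor of endothelium, ran from 8.37 to 12.30 (median 10.83) in HSC and from 2.28 to 9.91 (median 2.34) in E12.5 cells. All 26 HSC (interval 86.8 to 100%) and 2 of 16 E12.5 cells were above background, and the difference was 7.41. Procr, the protein C receptor used to sort HSC, was found in 17 of 26 HSC and 0 of 16 E12.5 cells, with HSC values from 2.33 to 13.03 (median 10.70) and a difference of 5.69. Its values split in HSC, with 9 of 26 cells at background. The 0 of 16 in E12.5 cells allows a share of up to 20.6% (interval). Pdzk1ip1, a small membrane protein used as an HSC reporter, was found in 20 of 26 HSC and 1 of 16 E12.5 cells, Mmrn1, a secreted platelet and endothelial protein, in 21 of 26 HSC and 3 of 16 E12.5 cells, and Vwf, the clotting factor of endothelium and platelets, in 13 of 26 HSC and 1 of 16 E12.5 cells. Tek, the angiopoietin receptor, was found in 13 of 26 HSC and 1 of 16 E12.5 cells. Cd34 was less distinct, in 23 of 26 HSC and 12 of 16 E12.5 cells with a difference of 1.40, which was -0.08 without the 5 cells. The 4 lower members included Itga6, an integrin chain (-3.38), Cd9, a tetraspanin (-2.44), and Itga2b, which encodes CD41 and marks emerging blood cells (-2.27).

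The promoters of Hlf and Adgrl4 are shown because these genes were high together in HSC and both windows hold the ETS core CCGGAA, the sequence bound by factors such as Erg and Fli1, on either strand. Each RefSeq window (GRCm38.p6) runs from 250 bases before to 50 after the annotated start, and capitals mark the core. Hlf lies on chr11:90390868-90391167, minus strand, with its core 125 bases before the start. Adgrl4 lies on chr3:151437632-151437931, plus strand, with its core 25 bases before the start.
Hlf: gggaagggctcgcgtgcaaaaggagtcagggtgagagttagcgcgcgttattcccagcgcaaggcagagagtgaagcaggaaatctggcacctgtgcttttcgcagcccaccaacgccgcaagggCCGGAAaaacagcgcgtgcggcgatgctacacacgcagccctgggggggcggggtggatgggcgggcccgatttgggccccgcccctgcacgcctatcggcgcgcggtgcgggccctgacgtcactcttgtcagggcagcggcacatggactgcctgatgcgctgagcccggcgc
Adgrl4: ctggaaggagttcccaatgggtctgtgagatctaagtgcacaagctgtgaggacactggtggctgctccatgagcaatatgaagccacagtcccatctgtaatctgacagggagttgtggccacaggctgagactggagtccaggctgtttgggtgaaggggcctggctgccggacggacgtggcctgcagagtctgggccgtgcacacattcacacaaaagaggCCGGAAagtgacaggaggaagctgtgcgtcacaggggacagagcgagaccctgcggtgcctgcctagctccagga
The core occurred in 14.9% of 32851 promoter windows, in windows of 3 of the 12 matched genes among the 15 furthest above 0, and in windows of 2 of the 11 matched genes among the 15 furthest below 0. Among the same 12 and 11 genes the RUNX sequence TGTGGT was in 0 and 3 (16.8% of all windows), the E-box CAGCTG in 3 and 3 (16.3%), the cAMP element TGACGTCA in 1 and 0 (1.79%), the AP-1 sequence TGANTCA in 2 and 0 (7.81%) and the PU.1 sequence GAGGAAGT in 0 and 0 (3.20%). A gene was counted when any of its windows held the sequence, and some genes have more than 1 window, such as Igf2 with 4. Counts of genes are therefore not on the scale of the share of single windows, here and for the promoters below. A match is a description of letters and not a bound site.

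Intracellular regulators associated with HSC were higher in 14 and lower in 4 of 24 cases (median 1.31, and 0.05 when medians rather than means over cells are compared). Ifitm3, an interferon-induced membrane protein that blocks virus entry, ran from 8.31 to 14.29 (median 12.72) in HSC and from 2.28 to 12.49 (median 2.62) in E12.5 cells. All 26 HSC and 6 of 16 E12.5 cells were above background, and the difference of 7.32 was 8.29 after quantile normalization. Its neighbour in the family Ifitm1 was found in 24 of 26 HSC and 9 of 16 E12.5 cells (3.12). The 3 measured Gimap GTPases of this list were all higher in HSC, with Gimap8 at 5.06, Gimap1 at 4.31 and Gimap6 at 4.27. Gimap6 was found in 26 of 26 HSC and 8 of 16 E12.5 cells. Members of the Gimap family outside the list are not given here. Fgd5, a guanine nucleotide exchange factor used to label HSC, was found in 21 of 26 HSC and 3 of 16 E12.5 cells. Tgm2, a transglutaminase, was found in 18 of 26 HSC and 0 of 16 E12.5 cells, and 1 probe set of a kind that can match related transcripts stands for it. Rgs1, a regulator of G-protein signalling, lay on the other side, in 1 of 26 HSC and 11 of 16 E12.5 cells (-5.28).

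Interferon-response and antigen-presentation genes had a list median near 0 as deposited, above that of all measured genes (-0.54, and 0.02 after quantile normalization). Of 20 measured members 6 were higher and 2 lower, with a median of -0.04 (8, 1 and 0.80 after quantile normalization). Over all measured genes 7.91% were higher and 36.9% lower as deposited. Besides the Ifitm genes the higher members were Oas1a, an antiviral enzyme (2.30), Irf7, an interferon regulatory factor (1.77), Gbp2, an interferon-induced GTPase (1.70), and the peptide transporter Tap1 (1.32). Irf7 was found in 8 of 26 HSC and 0 of 16 E12.5 cells. The MHC class I genes H2-K1 and H2-D1 were in every cell of both populations and differed by -0.44 and -0.35, and by 0.57 and 0.76 after quantile normalization, which turns their direction.

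Vascular genes were higher in HSC in part. Of 32 measured members 15 were higher and 1 lower, with a median of 0.79 (0.044 when medians over cells are compared). Without the 5 cells picked out above the counts were 10 and 1 and the median was 0.33, and HSC cells 5 and 7 held 25 and 27 members. Members found in many HSC were Egfl7, a secreted endothelial factor (26 of 26 HSC and 7 of 16 E12.5 cells), Eng, a TGF-beta co-receptor (22 of 26 and 9 of 16), and Ecscr, a regulator of endothelial survival (14 of 26 and 1 of 16). Defining endothelial genes were rare. Cdh5, which encodes VE-cadherin, was found in 4 of 26 HSC and 0 of 16 E12.5 cells, Kdr, the VEGF receptor, in 4 of 26 HSC and 0 of 16 E12.5 cells, and the arterial factor Sox17 in 1 of 26 HSC and 0 of 16 E12.5 cells. Outside the list, Calcrl, a receptor for adrenomedullin and CGRP, and Col4a2, a basement-membrane collagen, were also high. Calcrl ran from 6.14 to 13.36 (median 11.86) in HSC and from 3.0 to 12.73 (median 3.14) in E12.5 cells. Calcrl differed by 5.84, but by only 2.06 on the mean of its probe sets. Col4a2 was found in 18 of 26 HSC and 0 of 16 E12.5 cells. Gng11, a G-protein gamma subunit, was found in 24 of 26 HSC and 4 of 16 E12.5 cells. The only lower vascular member, Pecam1 (-2.53), encodes CD31, on which the cluster cells were sorted.

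Imprinted genes, which are expressed from 1 parental copy and often act on growth, were higher in 8 of 15 cases and lower in 1 (median 1.08, and 0.05 when medians over cells are compared). Igf2, a fetal growth factor, ran from 2.40 to 12.40 (median 10.79) in HSC and from 2.34 to 12.80 (median 3.52) in E12.5 cells, so that the ranges overlapped throughout while the numbers above background were 25 of 26 and 6 of 16. Meg3, a long noncoding RNA of the Dlk1 domain, was found in 15 of 26 HSC and 0 of 16 E12.5 cells. Grb10, an adaptor that dampens growth-factor receptors, was found in 22 of 26 HSC and 4 of 16 E12.5 cells, and Igf2r, the receptor that removes Igf2, in 16 of 26 HSC and 3 of 16 E12.5 cells. Cdkn1c, a cell-cycle inhibitor of quiescent HSC, was found in 11 of 26 HSC and 4 of 16 E12.5 cells (1.08). The lower member was Gnas, a G-protein alpha subunit (-1.74, in every cell of both populations). Fetal programme genes did not lie on 1 side. Of 7 measured members 2 were higher and 3 lower, with the chromatin protein Hmga2 at 1.41 (-0.22 between medians over cells) and the RNA-binding proteins Igf2bp3 and Igf2bp1 at -4.80 and -2.47.

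E12.5 cluster cells carried the genes of myeloid cells. Fcgr3, the low-affinity IgG receptor CD16, ran from 2.30 to 2.56 (median 2.36) in HSC and from 2.30 to 14.35 (median 12.32) in E12.5 cells, a difference of -8.74. It was above background in 0 of 26 HSC, which allows a share of up to 13.2% (interval), and in 14 of 16 E12.5 cells (87.5%, interval 61.7 to 98.4%). The 2 E12.5 cells without it were cells 9 and 12. No cell of either population had both Mecom and Fcgr3. With Fcgr3 in 0 of 26 HSC, this rests on E12.5 cell 9, the only E12.5 cell with Mecom, and shows no exclusion. Its signalling partners had the same direction. Fcer1g, the shared gamma chain of Fc receptors, was found in 4 of 26 HSC and 14 of 16 E12.5 cells, and Tyrobp, an adaptor of myeloid receptors, ran from 2.44 to 11.15 (median 2.89) in HSC and from 7.12 to 14.64 (median 13.66) in E12.5 cells, with 8 of 26 and 16 of 16 above background. The kinase Syk differed by -3.0. Of 11 measured Fc receptors and adaptors 0 were higher and 9 lower (median -1.97). After quantile normalization 8 were lower (median -1.32), and between medians over cells the list median was 0.014. Without the 5 cells 6 were lower and the median was -1.23. Members such as Fcgr1, the high-affinity receptor (0 of 26 HSC and 4 of 16 E12.5 cells), and Fcgr4 (0 of 26 HSC and 3 of 16 E12.5 cells) rest on few cells.

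Plek, which encodes pleckstrin, a protein kinase C substrate of platelets and leukocytes, had the lowest difference of any gene named here. It ran from 2.32 to 11.12 (median 2.60) in HSC and from 2.34 to 15.77 (median 13.88) in E12.5 cells, differed by -9.42 and was found in 3 of 26 HSC and 15 of 16 E12.5 cells. Cd52, a surface glycoprotein of leukocytes, was found in 4 of 26 HSC and 14 of 16 E12.5 cells and differed by -8.14. Of 26 measured myeloid regulators and receptors 1 was higher and 19 lower (median -1.87), and after quantile normalization 2 and 13 (median -1.12). Without the 5 cells picked out above 2 were higher and 15 lower (median -1.40). Ncf1, a subunit of the NADPH oxidase, was found in 0 of 26 HSC and 12 of 16 E12.5 cells, Cebpa, the factor that commits cells to granulocytes and monocytes, in 0 of 26 HSC and 7 of 16 E12.5 cells, and Alox5, which starts leukotriene synthesis, in 0 of 26 HSC and 9 of 16 E12.5 cells. Spi1, which encodes PU.1, was less distinct (15 of 26 HSC and 13 of 16 E12.5 cells, difference -2.06). The higher member was Lsp1, a leukocyte actin-binding protein (1.60). The GM-CSF receptor chain Csf2rb was found in 6 of 26 HSC and 10 of 16 E12.5 cells. Glipr1, a secreted CAP family protein (-7.22), the phospholipid enzyme Lpcat2 (-6.32) and the actin-severing protein Gsn (-6.38) were also among the 15 genes furthest below 0.

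Some granule and mast-cell genes were found in E12.5 cells and in few or no HSC. Cpa3, the carboxypeptidase of mast-cell granules, ran from 2.30 to 2.38 (median 2.34) in HSC and from 2.30 to 14.98 (median 11.45) in E12.5 cells, with 0 of 26 and 11 of 16 above background (68.8%, interval 41.3 to 89.0%). The difference was -7.05, and -8.68 without the 5 cells. Mpo, the myeloperoxidase of neutrophil granules, was found in 2 of 26 HSC and 7 of 16 E12.5 cells, and Serpinb1a, an inhibitor of granule proteases, in 0 of 26 HSC and 11 of 16 E12.5 cells. Cpa3 and Mpo were above background together in 7 of 16 E12.5 cells and in 0 of 26 HSC, where the 0 follows from Cpa3 alone. Of 7 measured mast-cell and basophil genes 0 were higher and 4 lower (median -2.01), and after quantile normalization 1 and 3 (median -0.87). The list median was -0.14 between medians over cells. Among the lower members were Hdc, which makes histamine (0 of 26 HSC and 5 of 16 E12.5 cells), and the factor Mitf (0 of 26 HSC and 4 of 16 E12.5 cells). Of 7 neutrophil granule genes 1 was higher and 5 lower (median -1.29), and after quantile normalization 1 and 3 (median -0.88). Cells of both populations held a median of 3 of these 7 genes. The higher member, Prtn3, which encodes proteinase 3, was found in 22 of 26 HSC and 7 of 16 E12.5 cells (3.25), opposite to Mpo. Elane, the neutrophil elastase, was found in 0 of 26 HSC and 0 of 16 E12.5 cells.

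The promoter of Cpa3 is shown because this gene was at background in all 26 HSC and above it in 11 of 16 E12.5 cells, and its window holds the GATA sequence AGATAA on either strand, which factors such as Gata2 bind. The window lies on chr3:20242132-20242431 (GRCm38.p6, minus strand), with capitals on the match, 46 bases before the start.
Cpa3: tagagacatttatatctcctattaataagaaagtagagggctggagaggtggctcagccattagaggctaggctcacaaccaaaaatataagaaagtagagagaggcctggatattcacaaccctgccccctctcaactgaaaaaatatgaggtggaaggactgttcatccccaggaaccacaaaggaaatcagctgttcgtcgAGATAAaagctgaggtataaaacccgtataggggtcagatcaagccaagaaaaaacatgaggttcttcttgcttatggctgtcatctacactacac
That sequence was in 11.2% of all windows, and in 2 of the 11 matched genes below 0 and 0 of the 12 above.

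Macrophage markers rested on 3 E12.5 cells. Of 18 measured members 1 was higher and 12 lower with a median of -1.51. Without the 5 cells 2 were higher and 0 lower and the median was 0.02. C1qb was found in 1 of 26 HSC and 4 of 16 E12.5 cells and Adgre1, which encodes F4/80, in 0 of 26 HSC and 4 of 16 E12.5 cells. The higher member was Lyz2, which encodes lysozyme, in 23 of 26 HSC and 7 of 16 E12.5 cells with a difference of 3.37 and a range from 2.35 to 12.45 (median 10.95) in HSC. It is the only macrophage marker other than Apoe (20 of 26 HSC), a lipid carrier, and Ctsb (24 of 26), a lysosomal protease, that most HSC held.

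Genes of the late cell cycle were found in fewer HSC than E12.5 cells. Each of 27 measured genes of G2 and mitosis was lower in HSC, with a median of -3.83 (25 of 27 and -2.69 after quantile normalization). Birc5, which encodes survivin, differed by -5.86 and was found in 8 of 26 HSC and 12 of 16 E12.5 cells. Top2a, the topoisomerase that untangles replicated chromosomes, was found in 9 of 26 HSC and 13 of 16 E12.5 cells, Mki67, the proliferation marker, in 8 of 26 HSC and 12 of 16 E12.5 cells, and Ccnb2, a mitotic cyclin, in 5 of 26 HSC and 11 of 16 E12.5 cells. Cells fell into 2 ranges. In HSC, 18 of 26 cells held 2 to 4 of the 27 genes and 8 held 14 to 27, and in E12.5 cells 4 of 16 held 1 to 3 and 12 held 15 to 27. Within the high range the median was 20.5 genes in HSC and 25 in E12.5 cells.

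S-phase genes were less distinct. Of 26 measured members 1 was higher and 13 lower (median -1.07), and 3 and 2 after quantile normalization (median -0.11). Pcna, the replication clamp, was found in 22 of 26 HSC and 16 of 16 E12.5 cells (-1.87), and Rrm2, which makes deoxynucleotides, in 6 of 26 HSC and 8 of 16 E12.5 cells (-3.26). Mcm7, a subunit of the replicative helicase, differed by -0.04 and by 0.89 after quantile normalization. Cell-cycle inhibitors and D cyclins lay on both sides, with 4 higher and 7 lower of 19. Ccnd1, a D cyclin, was found in 13 of 26 HSC and 1 of 16 E12.5 cells, and Ccnd2 in 21 of 26 HSC and 7 of 16 E12.5 cells. Cdkn1a, which encodes p21, was found in 1 of 26 HSC and 8 of 16 E12.5 cells, Btg1, an antiproliferative factor, in 13 of 26 HSC and 15 of 16 E12.5 cells with a difference of -6.47, and Ccng2, a cyclin of arrested cells, in 11 of 26 HSC and 14 of 16 E12.5 cells. Pmaip1, which encodes the pro-apoptotic protein Noxa, was found in 2 of 26 HSC and 13 of 16 E12.5 cells and differed by -7.03.

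**Figure D2:**
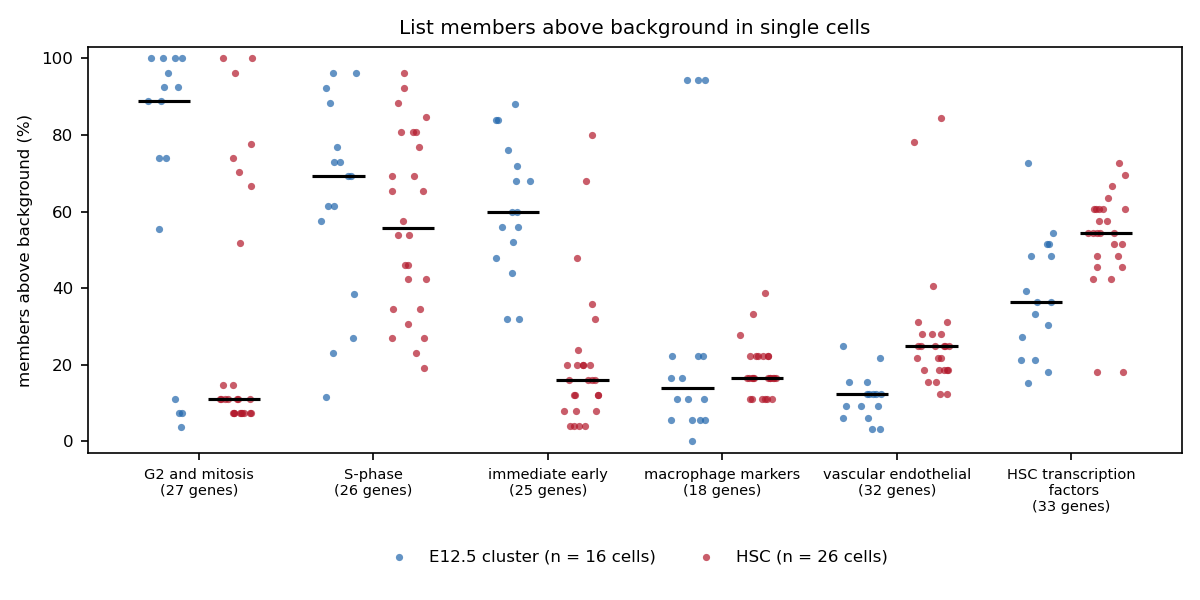
Share of each list's measured genes above background (percent) in 16 E12.5 cluster cells (blue) and 26 HSC (red), with each point 1 cell and black lines the medians over cells. G2 and mitosis genes fall into a low and a high range in both populations, 3 E12.5 cells stand apart in macrophage markers (17 of 18 genes), and HSC cells 5 and 7 in vascular genes (25 and 27 of 32).

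Immediate early genes, which cells switch on within minutes of a stimulus and also during tissue dissociation, were lower in HSC in 24 of 25 cases (median -3.73, and 22 with -3.0 after quantile normalization). Jun and Junb, subunits of AP-1, were found in 5 of 26 HSC and 13 of 16 E12.5 cells and in 4 of 26 HSC and 15 of 16 E12.5 cells, and Fos in 3 of 26 HSC and 10 of 16 E12.5 cells. Nfkbia, the inhibitor of NF-kappaB that NF-kappaB itself induces, ran from 2.93 to 11.89 (median 3.40) in HSC and from 3.67 to 15.17 (median 13.71) in E12.5 cells and differed by -7.44. In single cells 8 to 22 of the 25 genes were above background in E12.5 cells and 1 to 20 in HSC (medians 15 and 4). HSC cells 26 and 27 held 20 and 17. The part of dissociation in these differences was not tested.

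The inducible heat-shock proteins followed the same direction. Hspa1a, an HSP70 chaperone, ran from 2.30 to 12.43 (median 2.35) in HSC and from 2.34 to 14.94 (median 12.61) in E12.5 cells. It was above background in 3 of 26 HSC (11.5%, interval 2.45 to 30.2%) and 13 of 16 E12.5 cells (81.3%, interval 54.4 to 96.0%), a difference of -7.06. Hspa1b, its neighbour and near-identical copy, was found in 2 of 26 HSC and 12 of 16 E12.5 cells (-6.85), and the probe sets may not tell the copies apart. Their promoters are shown because both hold the heat-shock element GAANNTTC, the sequence of heat-shock factors, at the same place, 104 bases before the start (capitals). The windows (GRCm38.p6, minus strand) lie on chr17:34972107-34972406 for Hspa1a and chr17:34959189-34959488 for Hspa1b and differ at 4 of 300 bases.
Hspa1a: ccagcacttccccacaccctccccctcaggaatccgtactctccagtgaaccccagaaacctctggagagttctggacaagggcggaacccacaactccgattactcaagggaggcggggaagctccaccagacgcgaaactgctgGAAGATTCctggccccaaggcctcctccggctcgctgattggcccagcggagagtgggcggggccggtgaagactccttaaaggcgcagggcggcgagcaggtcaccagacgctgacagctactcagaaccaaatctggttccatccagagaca
Hspa1b: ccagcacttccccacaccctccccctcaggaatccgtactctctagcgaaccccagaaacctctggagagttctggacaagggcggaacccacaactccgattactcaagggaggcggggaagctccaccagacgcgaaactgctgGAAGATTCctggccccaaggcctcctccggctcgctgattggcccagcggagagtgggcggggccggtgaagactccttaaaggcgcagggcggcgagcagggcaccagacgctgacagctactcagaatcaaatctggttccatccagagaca
The element was in 7.86% of all windows, in 2 of the 11 matched genes below 0 (this pair) and in 2 of the 12 above.

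Metabolic lists were lower in HSC as deposited and moved towards 0 with quantile normalization. Shifting cells to an equal median signal hardly moved them (oxidative phosphorylation -1.64, glycolysis -1.46, serine and one-carbon synthesis -1.22). Of 25 measured genes of oxidative phosphorylation 0 were higher and 21 lower (median -1.68), and 0 and 8 after quantile normalization (median -0.61). Ndufa1, a complex I subunit, differed by -4.86, Cycs, cytochrome c, by -2.91, and Sdha, a subunit of succinate dehydrogenase, by -2.29. Of 18 glycolysis genes 0 were higher and 12 lower (median -1.50), and 1 and 3 after quantile normalization (median -0.52). The lactate exporter Slc16a3 was found in 0 of 26 HSC and 9 of 16 E12.5 cells, and Aldoa, an aldolase, differed by -2.35. Genes of serine and one-carbon synthesis had 0 higher and 9 lower of 17 (median -1.26, and -0.41 after quantile normalization), with Psat1, an enzyme of serine synthesis, at -4.42 and the stress-response factor Atf4 at -3.17. Housekeeping genes had a median of -1.33 and ribosomal proteins of -0.70, which became -0.17 and 0.13 after quantile normalization, so that ribosomal proteins changed sign. Tmsb4x, which encodes the actin-binding thymosin beta-4, was the 1 measured gene whose ranges did not meet, and was picked out after its values were seen. It ran from 11.92 to 14.88 (median 13.89) in HSC and from 14.98 to 15.94 (median 15.58) in E12.5 cells. After quantile normalization its ranges overlapped (highest HSC 14.88, lowest E12.5 cell 14.34).

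**Figure D3:**
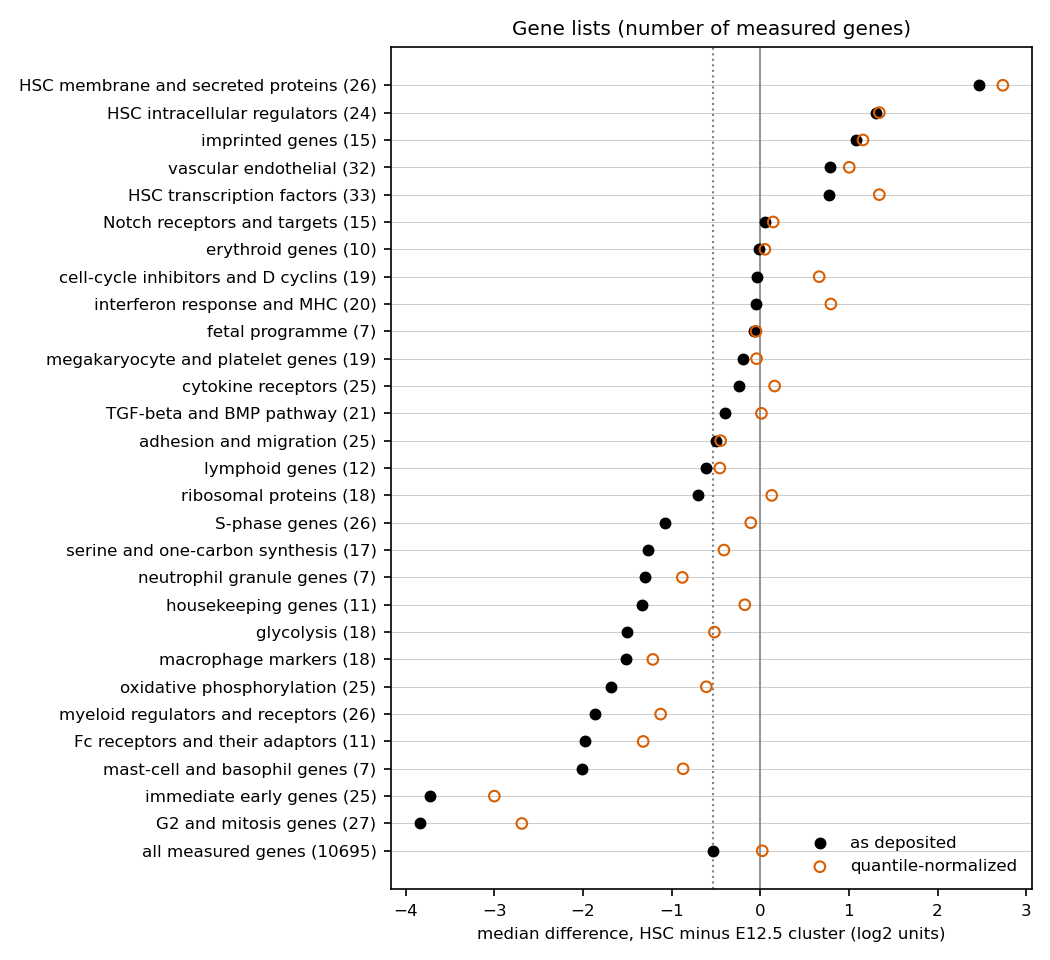
Median difference (HSC minus E12.5 cluster, log2 units) over the measured genes of each list, as deposited (filled) and after quantile normalization (open), with the number of genes in parentheses and the dotted line at the median of all 10695 measured genes (-0.54). HSC membrane proteins stand at 2.47 and 2.74, G2 and mitosis genes at -3.83 and -2.69, and metabolic, ribosomal and housekeeping lists move towards 0 with quantile normalization.

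The 15 genes furthest above 0 and the 15 furthest below gave a picture of single cells, which is a description since these cells chose the genes. HSC had 7 to 15 of the higher genes above background (median 13) and 0 to 6 of the lower ones (median 2.5). E12.5 cells had 0 to 10 of the higher genes (median 2) and 7 to 15 of the lower ones (median 14). The E12.5 cell with 10 and 7 was cell 9. It held Mecom (9.0) and Hlf (11.11), lacked Fcgr3, Cpa3 and Cd48, and held Kit (11.57) and Ptprc (11.83). It had 24 of 33 HSC transcription factors above background, against 5 to 18 in the other E12.5 cells and 6 to 24 in HSC. Esam was at background (2.43) and Procr just below the limit (4.70). Among HSC the lowest count of higher genes was 7, in cell 5, followed by 9 in cell 23, which lacked Mecom, Hlf and Ptprc.

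**Figure D4:**
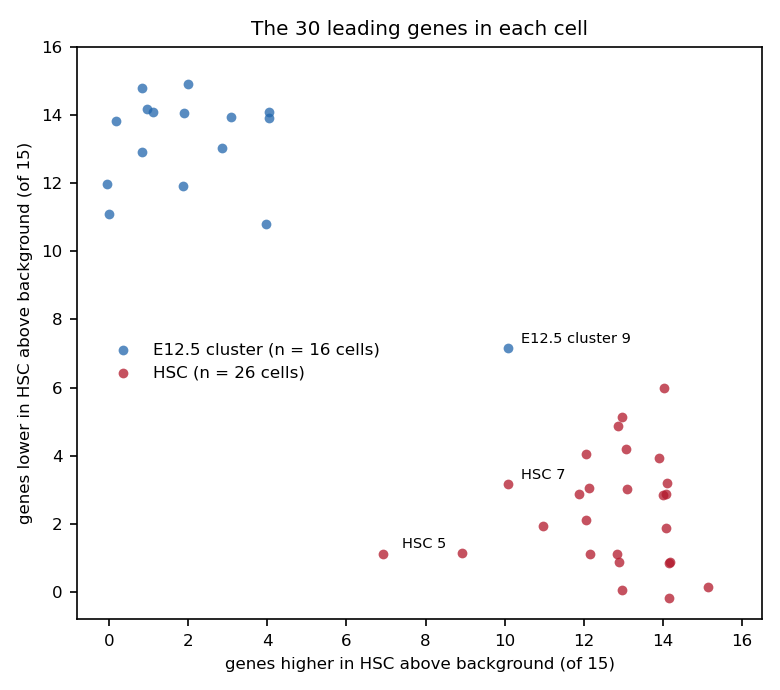
Number of the 15 genes higher in HSC (horizontal) and of the 15 genes lower in HSC (vertical) above background in each of 16 E12.5 cluster cells (blue) and 26 HSC (red), with points moved slightly so that they do not hide each other. E12.5 cells hold 0 to 4 and 11 to 15 except cell 9 with 10 and 7, and HSC hold 7 to 15 and 0 to 6.

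The earlier populations show which of these genes were present before the liver stage. HEC were GFP-positive and EC GFP-negative cells of E10.5 embryos with an eR1-GFP reporter, and the E10.5 cluster cells came from wild-type embryos with the gate of the E12.5 cells. Of the 15 higher genes 11 were above background in 50% or more of the 7 HEC and 8 in that share of the 7 EC. In the 28 E10.5 cluster cells 2 (Esam and Gng11) reached that share, and in the 16 E12.5 cells 0. The 0 follows in part from choosing these genes for low E12.5 and high HSC values. Median probe sets above background were 5729 in EC, 7834 in HEC, 9967 in E10.5 clusters, 7917 in E12.5 clusters and 6583 in HSC. The share of all measured genes reaching 50% of cells was not counted, so these counts and those of the lower genes have no background. The mean of Mecom was 11.72 ± 4.20 (SD) in HEC and 10.18 ± 3.25 in HSC, and it was 3.58 ± 3.10 in EC, 3.18 ± 2.66 in the E10.5 clusters and 2.76 ± 1.67 in the E12.5 clusters. Its HEC and HSC means lie within 1 SD of each other, as do those of EC and both cluster populations. The 4 higher genes that fewer than 50% of HEC held were Gfi1, Hlf, Gimap8 and Pdzk1ip1. Gfi1 was found in 20 of 26 HSC, 4 of 16 E12.5 cells, 3 of 28 cells of the E10.5 clusters and 0 of 7 HEC, and Hlf in 21, 2, 5 and 1 of the same cells.

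Of the 15 lower genes 13 were above background in 50% or more of E10.5 cluster cells, and 2 (Nfkbia and Btg1) in that share of HEC. Plek was found in 28 of 28 E10.5 cluster cells and in 0 of 7 HEC and 0 of 7 EC. Fcgr3 was found in 21 of 28 E10.5 cluster cells with a mean of 9.22 ± 4.12, against 11.12 ± 3.69 in E12.5 cells. Cpa3 was found in 11 of 28 and Glipr1 in 13 of 28, the 2 lower genes that fewer than 50% of E10.5 cluster cells held. The cluster populations were taken with 1 gate from wild-type embryos but at different stages and from different tissue.

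**Figure D5:**
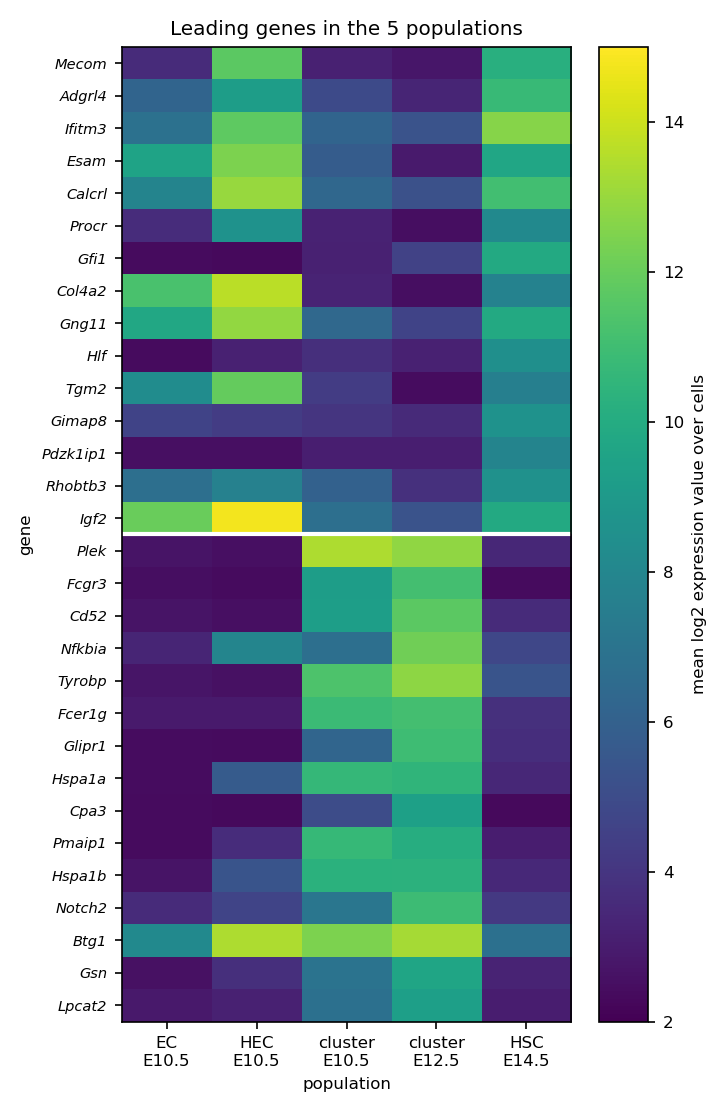
Mean log2 value over cells of the 15 genes furthest above 0 (top) and the 15 furthest below 0 (bottom) in 7 EC, 7 HEC, 28 E10.5 and 16 E12.5 cluster cells and 26 HSC. Mecom, Esam, Calcrl, Col4a2 and Igf2 are high in both HEC and HSC, Gfi1 and Hlf highest in HSC, and Plek and Fcgr3 in both cluster populations. Esam, Calcrl, Col4a2 and Igf2 were also above background in most EC, so they were not particular to HEC and HSC. Mecom was not above background in most EC. Esam was also found in many E10.5 cluster cells.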

How the data were processed

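Each single cell was sorted into lysis buffer, its cDNA amplified and put on its own Affymetrix array for the whole mouse genome, with 45101 probe sets. The deposited log2 values are from GCRMA in affy, per the submitters' processing notes. Versions are not given in the sources used here. Values run from 2.19 to 17.86. The method removes a background modelled on probe sequence, so low transcripts collect near the lower bound. The arrays' number limits the precision.

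The platform annotation gave 1 symbol for 34958 probe sets, more than 1 for 932 and no entry for 9211. Each of 18194 genes was represented by the probe set of highest average in the 5 populations, and 10695 genes above background (log2 value over 5) in at least 3 cells counted as measured. The 64 control probe sets were left out. Both Dap 3' and Phe 3' controls held a value shared across arrays in 17 HSC and 11 E12.5 cells, so arrays look scaled to them, a step no source used here states.

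Python 3.11.15 with pandas 2.3.3 and scipy 1.17.1 gave means, differences, medians over 34 gene lists and intervals, and the calculation was tested on simulated data. Named genes were the 15 furthest above and below 0 among those above background in 50% or more of cells of the higher population, leaving out genes of the sorting gates, and members of the lists. The compared cells, the lists and the limit of r = 0.95 for near-identical arrays were chosen with earlier results of these data known. Alternatives were other scalings, probe-set rules, sizes and thresholds, medians over cells, and leaving cells out. Promoter windows came from RefSeq and matched 12 and 11 of the 15 named genes on each side.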

Additional observations from a re-analysis of the deposited data

How the results depend on the processing

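The number of genes higher in HSC was 1795 after quantile normalization, 492 when all probe sets of a gene were averaged and 241 at a size of 2 log2 units. The number lower was 1978 after quantile normalization and 1630 at a size of 2. Of 272 list medians under 8 alternatives, 264 counted as unmoved. They moved by less than the spread between cells, and none of 1 or more in size changed sign. The spread is the mean of the SDs over cells of the 2 populations and is wide. S-phase genes going from -1.07 to -0.11 after quantile normalization count as unmoved. So do HSC transcription factors going from 0.77 to 0.078 between medians over cells. Between medians over cells in place of means, intracellular regulators came to 0.051, imprinted genes to 0.050, mast-cell and basophil genes to -0.14, and Fc receptors and macrophage markers turned to 0.014 and 0.030. Without the 5 cells picked out for vascular or macrophage genes, macrophage markers turned to 0.023. Quantile normalization moved ribosomal proteins to 0.13 and housekeeping genes to -0.17. In only the cells with both controls at the shared value, 1067 genes were higher and 3637 lower. There S-phase genes came to -0.12, neutrophil granule genes to -0.59 and serine and one-carbon genes to -0.60. Mast-cell and basophil genes came to -0.81, immediate early genes to -2.13 and the gene Cd34 to 0.29. HSC transcription factors and Fc receptors went further from 0, to 1.23 and -2.14. Of 1184 differences of 148 named genes, 6 turned in genes that differed by 1 or more, namely Adgre1 (0.028), C1qb (0.015), Fcgr1 (0.014), Fcgr4 (0.030) and Hmga2 (-0.22) between medians over cells and Cd34 (-0.085) without the 5 cells, and 38 others moved by more than the spread. Smaller differences, such as those of Mcm7, H2-K1 and H2-D1, also changed sign. A gene found in under 50% of the cells of both populations has medians at background by construction. All 24 counts of cells for the 4 markers at thresholds of 4 or 6 or on any probe set stayed within the exact interval of the count given. Signal near the array background limits what can be said of low transcripts. No paired analysis was possible because no animal or litter is named, replicate numbers only count cells, and the results come from no test.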

Other observations

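Receptors and pathways outside the stem-cell and myeloid lists held members on both sides. Their counts are to be read against all measured genes, of which 7.91% were higher and 36.9% lower. Of 21 measured genes of the TGF-beta and BMP pathway, which restrains and patterns stem cells, 3 were higher in HSC and 6 lower (median -0.39, against -0.54 over all genes). The higher ones were receptors: Eng (2.45), the co-receptor Tgfbr3 (2.40) and the BMP receptor Bmpr2 (1.82). Bmpr2 was found in 20 of 26 HSC and 8 of 16 E12.5 cells, and differed by only 0.59 on the mean of its probe sets. The lower ones included the receptor Tgfbr1 (-2.83), the shared signal carrier Smad4 (-2.18) and the inhibitor Skil (-3.53). The Notch receptors lay on opposite sides. Notch2 was found in 6 of 26 HSC and 15 of 16 E12.5 cells and ran from 2.30 to 10.28 (median 2.54) in HSC and from 3.04 to 13.79 (median 11.33) in E12.5 cells, whereas Notch1, which arterial and lymphoid cells use, was found in 16 of 26 HSC and 5 of 16 E12.5 cells (1.75). Notch2 has 2 probe sets and the other did not share this direction. The targets Hes1 (2 of 26 HSC and 2 of 16 E12.5 cells) and Hey1 (0 of 26 HSC and 0 of 16 E12.5 cells) were near background in both. Of 25 cytokine receptors 2 were higher and 6 lower, the higher ones being the TNF receptor Tnfrsf1a (1.47) and the gp130 chain Il6st (1.07). Of 25 adhesion and migration genes 4 were higher and 11 lower. Itgal and Itgb2, the chains of the leukocyte integrin LFA-1, differed by -4.09 and -3.69 and their ligand Icam1 by -4.26, while Selp, the platelet and endothelial selectin, was found in 9 of 26 HSC and 0 of 16 E12.5 cells and Robo4, an endothelial guidance receptor, in 9 of 26 HSC and 0 of 16 E12.5 cells.

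Lineage lists other than the myeloid ones also held members on both sides. Since 7.91% of all measured genes were higher and 36.9% lower, equal counts lie towards HSC relative to all genes. Among 10 erythroid genes 3 were higher and 3 lower. The erythroid factors Gata1 (0 of 26 HSC and 6 of 16 E12.5 cells) and Klf1 (0 of 26 HSC and 4 of 16 E12.5 cells) were at background in every HSC, and the transferrin receptor Tfrc was found in 3 of 26 HSC and 11 of 16 E12.5 cells. Nfe2, a factor of the erythroid and platelet lines, was on the HSC side (23 of 26 HSC and 7 of 16 E12.5 cells, 3.63). Embryonic globins Hbb-y and Hbb-bh1 were at background in both populations. Of 19 megakaryocyte and platelet genes 5 were higher and 5 lower, and of 12 lymphoid genes 2 were higher, Bcl11a (2.12) and Notch1, and 4 lower. Of 14 hepatocyte markers on the array, 2 were measured and neither differed by 1, with Afp in 2 of 26 HSC and 1 of 16 E12.5 cells and Alb at background in both. The germ-cell helicase gene Ddx4 was found in 11 of 26 HSC and 1 of 16 E12.5 cells (2.88), and the mural receptor gene Pdgfrb in 0 of 26 HSC and 5 of 16 E12.5 cells (-3.28).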
